A study of Homo sapiens with 72 samples.

Results

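The complement genes described here are C3, CFB, CFI, C1R, C1S, CD46, CD55, CD59 and CFD, 9 of the 62266 genes in the deposited count table. They were chosen by symbol as components and regulators of the complement system, and all 9 were found. RNA was measured in 72 libraries from 3 immortalised human epithelial cell lines, Ect/E6E7 (ectocervical, Ecto), End1/E6E7 (endocervical, Endo) and VK2/E6E7 (vaginal, VK2), each carrying the E6 and E7 genes of human papillomavirus. In every line 8 groups of 3 libraries were made. Cells were given putrescine (PUT, 4 mM), spermidine (SPD, 400 µM), spermine (SPM, 400 µM) or no polyamine (NT), and after 4 h they were kept for 24 h with live Gardnerella vaginalis (GV, at 10000000 CFU in each well) or without bacteria (noGV). All groups shared keratinocyte serum-free medium, which was free of antibiotics during the exposure. Each line is a monoculture of immortalised cells, with no immune or liver cells added.

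Complement is a set of proteins that mark and kill microbes. C1R and C1S are the proteases of the first component of the classical pathway, which starts at antibody or other bound ligands. C3 is the protein on which all pathways converge, and its cleavage gives a fragment that coats the target. CFB (factor B) forms with bound C3 the protease of the alternative pathway, and CFD (factor D) is the enzyme that cleaves CFB. CFI (factor I) cuts deposited C3 and C4 fragments, with CD46 as one of its cofactors. CD55 speeds the decay of the C3-cleaving enzymes, and CD59 blocks the membrane pore at its last step. Most circulating complement comes from the liver, but epithelia make complement locally and carry the membrane regulators on their surface.

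Library totals ran from 20152143 to 42767996 counts, with a median of 31872238.5. Levels are given as CPM, a gene's count scaled to the normalised total of its library, and a comparison is given as a log2 fold change ± SE from edgeR with its adjusted p. A gene passed where that p was under 0.05. Nothing in the sources used here says that the 3 libraries of a group came from separate cultures, so p-values measure the spread between these libraries. All 14 squamous, basal and general epithelial markers were above 1 CPM in every line, with KRT5 at mean levels of 3810 CPM in Ecto, 10800 CPM in Endo and 17700 CPM in VK2. Of the leukocyte markers, CD68, CSF1R and CD14 were above 1 CPM in every line, with CD68 at 60.7 CPM in Ecto, 57.3 CPM in Endo and 93.9 CPM in VK2 and CSF1R at 10.4, 1.66 and 11.2 CPM. The leukocyte markers PTPRC, LYZ, CD3E and ITGAM and the hepatocyte markers ALB, APOA1, APOB, FGB, TTR and HP were under 1 CPM in every line. Because a whole culture was sequenced, fewer cells of a kind and less RNA per cell cannot be told apart.

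CFI was near the limit of detection. Its highest value was 11 counts in a library, and all 72 libraries together held 121 counts, so it passed the filter on low counts in no line and no fold change is given. CFD passed the filter in Ecto and VK2. In Endo it had at most 5 counts in a library, and it was not tested there. The tests therefore cover 8 members in Ecto, 7 in Endo and 8 in VK2.

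Promoters were available for 7 of the 9 members in the RefSeq table (GRCh38.p14, 250 bases before and 50 after the transcription start). C3 and C1S, which also rose in all 3 lines with bacteria, had none and were not searched. The 7 available promoters were searched on both strands for 5 motifs: the NF-kB consensus, TTCNNNGAA (STAT), the interferon-stimulated response element, TTGNNNCAA (C/EBP) and TGANTCA (AP-1). The CFB promoter, chr6:31945845-31946144 on the + strand, is shown because CFB rose in all 3 lines with bacteria and because its window held 3 of the 5 motifs, all before the start. The CD55 promoter, chr1:207321428-207321727 on the + strand, is shown beside it because CD55 had another pattern across the groups. Capitals mark matches to a motif.
CFB: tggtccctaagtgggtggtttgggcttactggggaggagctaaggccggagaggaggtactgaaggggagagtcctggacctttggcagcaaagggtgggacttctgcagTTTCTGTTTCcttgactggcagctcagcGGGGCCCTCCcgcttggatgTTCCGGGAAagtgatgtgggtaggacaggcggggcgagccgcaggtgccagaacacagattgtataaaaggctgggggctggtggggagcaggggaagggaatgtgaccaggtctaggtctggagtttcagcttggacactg
CD55: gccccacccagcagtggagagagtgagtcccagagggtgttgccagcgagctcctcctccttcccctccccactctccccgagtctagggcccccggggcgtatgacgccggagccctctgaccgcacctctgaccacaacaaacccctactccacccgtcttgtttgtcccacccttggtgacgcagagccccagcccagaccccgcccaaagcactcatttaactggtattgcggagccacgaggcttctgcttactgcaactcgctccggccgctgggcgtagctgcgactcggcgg

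Counted from the start as position 0, the CFB window held a match to the interferon-stimulated response element at -140 to -131, the NF-kB consensus at -112 to -103 and the STAT motif at -92 to -84. The window of CD59 held a STAT match at -184 to -176. None of these 5 motifs was found in the windows of CFI, C1R, CD46, CD55 and CFD. Of all 35116 promoters in the table, 11.3% held the NF-kB consensus, 7.66% the STAT motif, 3.57% the interferon-stimulated response element, 5.05% the C/EBP motif and 7.71% the AP-1 motif. A match describes letters, and factor binding was not measured.

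Without bacteria or polyamine, the 3 membrane regulators had the highest levels per kilobase in Endo and VK2. In Ecto CD59 and CD46 did, while C3 stood level with CD55 per kilobase and above it in CPM (84.2 against 41.9 CPM). Per kilobase of the canonical transcript, the mean levels in NT+noGV libraries were 63.9 CPM per kb for CD46 in Ecto, 64.2 in Endo and 64.2 in VK2. CD59 had 81.1 CPM per kb in Ecto, 23.4 in Endo and 54.7 in VK2, and CD55 had 16.2, 30.8 and 21.8 in the same order of lines. C3 had 16.1 CPM per kb in Ecto, 0.162 in Endo and 1.47 in VK2. CFB had 1.35 CPM per kb in Ecto, 0.211 in Endo and 0.468 in VK2. C1R and C1S stood at 6.71 and 1.53 CPM per kb in Ecto, 2.37 and 0.921 in Endo, and 1.17 and 0.712 in VK2.

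By log2 fold change, C3 showed the widest range between lines among the members tested. In NT+noGV libraries it had 0.747, 0.701 and 1.1 CPM in Endo, 89.6, 77.4 and 85.6 CPM in Ecto, and 7.85, 7.89 and 7.39 CPM in VK2. No 2 lines overlapped. In a model of all 72 libraries the log2 fold change was -6.62 ± 0.11 for Endo over Ecto (adjusted p = 3.9e-54), 3.45 ± 0.077 for Ecto over VK2 (adjusted p = 6.9e-47) and -3.17 ± 0.15 for Endo over VK2 (adjusted p = 1.9e-28).

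For Endo over Ecto, 7 of 8 members tested passed, against 63.9% of all genes. For Ecto over VK2, 7 of 8 passed, against 63.8%. For Endo over VK2, 7 of 8 passed, against 59.6%, of which C1S was lost without replicate 1 or without replicate 3 (adjusted p = 0.173 in each case). CD46 was the member that passed in none of these, and the 95% interval of its log2 difference between Endo and Ecto ran from -0.090 to 0.096. For Endo over Ecto the log2 fold change of CD55 was 0.93 ± 0.057 (adjusted p = 5e-23), whereas that of CD59 was -1.79 ± 0.036 (adjusted p = 1.2e-49). CFD had 0, 0.134 and 0 CPM in Endo, 1.73, 1.4 and 1.6 CPM in Ecto and 0.794, 0.859 and 0.789 CPM in VK2, all in NT+noGV libraries.

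**Figure D1:**
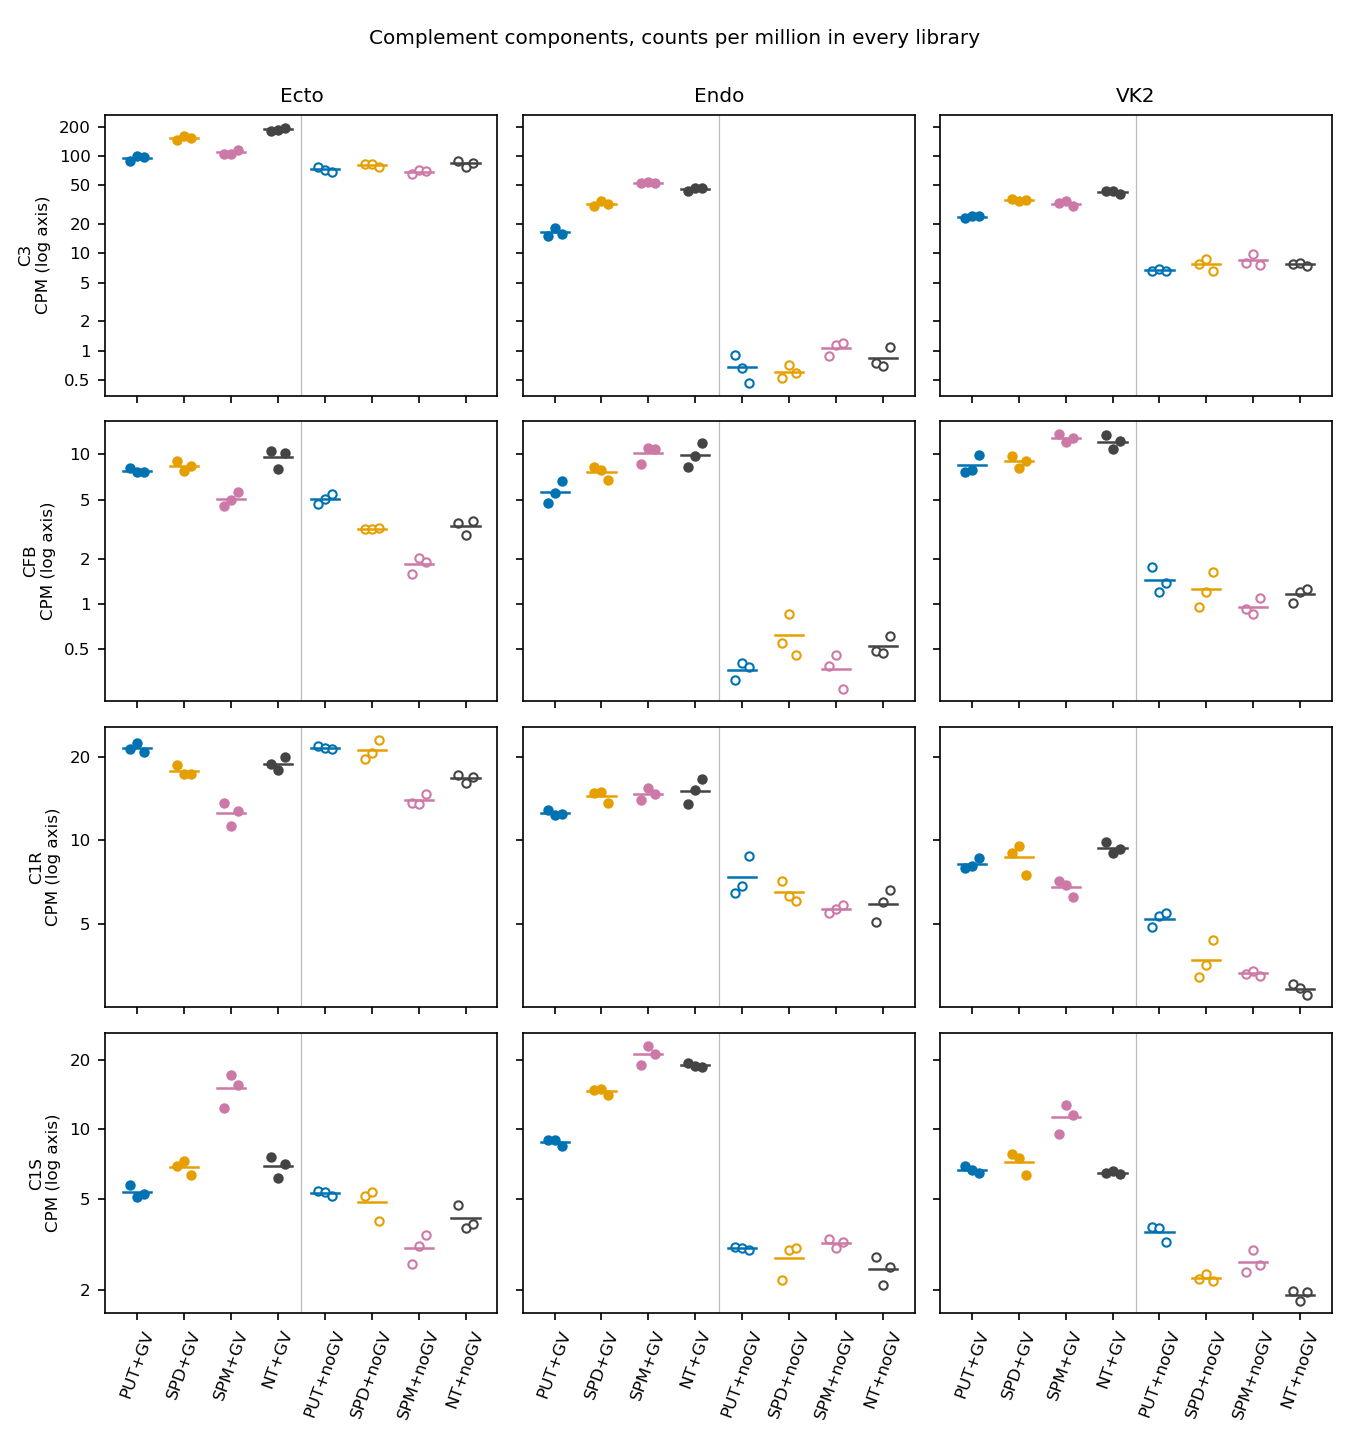
CPM (log axis) of C3, CFB, C1R and C1S in every library, with rows for genes, columns for lines, points for libraries, bars for the mean of 3, filled points for GV and open points for noGV. C3 and CFB sit higher in every NT+GV library than in any NT+noGV library of the same line, and C1S is highest in SPM+GV libraries of Ecto and VK2.

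This comparison asks how the bacterium alone moved complement transcripts. The soluble components C3, CFB and C1S rose in all 3 lines. C1R passed in all 3 as well, but in Ecto its call was lost without any of 5 of the 6 libraries. CFD, the other soluble component tested, passed in VK2 and not in Ecto. The log2 fold changes of the membrane regulators lay between -0.39 and 0.39. In Ecto 4 of 8 members rose, against 20.9% of all genes that rose and 23.7% that fell. In Endo 6 of 7 rose and 1 fell, against 25.7% that rose and 28.7% that fell. In VK2 6 of 8 rose, against 13.9% that rose and 12.5% that fell. The median log2 fold change of the members tested stood at 0.12 (Ecto), 1.36 (Endo) and 1.26 (VK2), while that of all genes tested was 0.0029, -0.00089 and 0.0014.

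C3 had 179, 187 and 196 CPM in NT+GV libraries of Ecto, against 89.6, 77.4 and 85.6 CPM in NT+noGV. In Endo it had 44.1, 46.7 and 46.9 CPM in NT+GV, against 0.747, 0.701 and 1.1 CPM in NT+noGV. In VK2 it had 43.7, 43.4 and 40.7 CPM in NT+GV, against 7.85, 7.89 and 7.39 CPM in NT+noGV. The groups did not overlap in any line, and on the log2 scale the difference was widest in Endo, the line with the least C3 before bacteria. The log2 fold change was 1.15 ± 0.061 in Ecto (adjusted p = 1.2e-13), 5.75 ± 0.11 in Endo (adjusted p = 6.7e-27) and 2.48 ± 0.077 in VK2 (adjusted p = 8.5e-22), or 2.21-fold, 53.7-fold and 5.60-fold.

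CFB, the protease precursor of the alternative pathway, rose as well. It had 10.5, 8.03 and 10.3 CPM in NT+GV of Ecto, against 3.51, 2.91 and 3.58 CPM in NT+noGV. In Endo it had 8.23, 9.75 and 11.9 CPM in NT+GV, against 0.485, 0.468 and 0.613 CPM in NT+noGV. In VK2 it had 13.4, 10.8 and 12.4 CPM in NT+GV, against 1.01, 1.21 and 1.26 CPM in NT+noGV. All NT+GV values lay above all NT+noGV values of their line. The log2 fold change was 1.51 ± 0.11 in Ecto (adjusted p = 4.1e-11), 4.24 ± 0.20 in Endo (adjusted p = 1.5e-17) and 3.42 ± 0.15 in VK2 (adjusted p = 5.6e-18).

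The classical-pathway proteases are neighbours on chromosome 12 and are usually found as a complex. C1S had 7.56, 6.14 and 7.03 CPM in NT+GV of Ecto, against 4.71, 3.74 and 3.88 CPM in NT+noGV. In Endo it had 19.4, 18.8 and 18.6 CPM in NT+GV, against 2.8, 2.1 and 2.52 CPM in NT+noGV. In VK2 it had 6.43, 6.62 and 6.38 CPM in NT+GV, against 1.98, 1.8 and 1.96 CPM in NT+noGV. Again no groups overlapped. The C1S log2 fold change was 0.74 ± 0.13 in Ecto (adjusted p = 3e-05), 2.95 ± 0.098 in Endo (adjusted p = 1.9e-21) and 1.77 ± 0.12 in VK2 (adjusted p = 7e-13).

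C1R rose by 1.36 ± 0.099 in Endo (adjusted p = 4.2e-13) and by 1.70 ± 0.11 in VK2 (adjusted p = 7.9e-14). In Ecto, where it had 18.9, 17.9 and 20 CPM in NT+GV, against 17.2, 16.1 and 16.9 CPM in NT+noGV, its rise was 0.17 ± 0.069 (adjusted p = 0.048). On leaving out each of those 5 libraries the adjusted p ran from 0.0712 to 0.2, and it was 0.156 without the filter on low counts and 0.0581 in one model of all lines. CFD, which activates CFB, rose in VK2 by 0.82 ± 0.25 (adjusted p = 0.014), with 1.91, 1.33 and 1.04 CPM in NT+GV, against 0.794, 0.859 and 0.789 CPM in NT+noGV. Without replicate 1 of NT+GV the value was 0.54 and did not pass (adjusted p = 0.169). In Ecto the log2 fold change of CFD was -0.017 ± 0.17 (adjusted p = 0.95).

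Among the membrane regulators, CD46 fell in Endo by 0.39 ± 0.039 on the log2 scale (adjusted p = 4.4e-10), with 157, 159 and 168 CPM in NT+GV, against 213, 207 and 219 CPM in NT+noGV. CD59 rose in Endo by 0.27 ± 0.035 (adjusted p = 1.2e-07) and in VK2 by 0.39 ± 0.032 (adjusted p = 3.5e-11). CD55 rose in Endo by 0.14 ± 0.040 (adjusted p = 0.003). In VK2 its log2 fold change was 0.16 ± 0.061 and missed the threshold (adjusted p = 0.051). In Ecto none of the 3 membrane regulators passed, and their 95% intervals lay between -0.15 and 0.21.

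**Figure D2:**
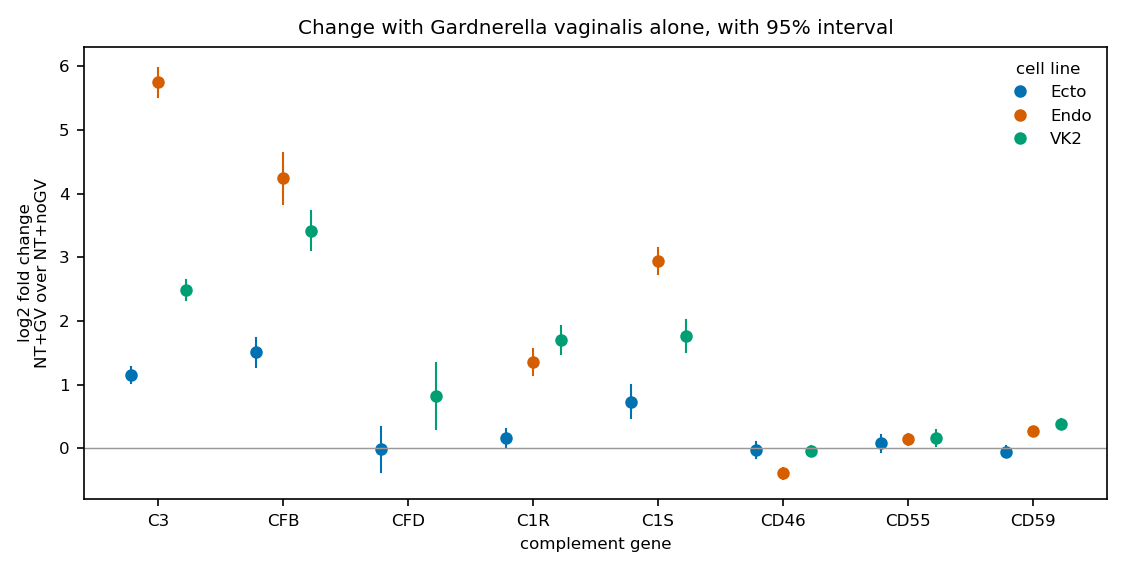
Log2 fold change of NT+GV over NT+noGV for each member tested (x axis) in Ecto, Endo and VK2, with lines for the 95% interval. C3 reaches 5.75 in Endo, while CD46, CD55 and CD59 lie between -0.39 and 0.39 in all lines.

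On the log2 scale, the size of the response differed between lines by the test of the difference itself. For Endo minus Ecto, 6 of 8 members passed, against 28% of all genes. C3 led with 4.59 ± 0.14 (adjusted p = 3.5e-36), followed by CFB with 2.73 ± 0.24 (adjusted p = 3.8e-14), C1S with 2.20 ± 0.16 (adjusted p = 1.2e-17) and C1R with 1.18 ± 0.12 (adjusted p = 2.4e-12). For Endo minus VK2, 4 of 8 passed, against 25.8%, with C3 at 3.27 ± 0.17 (adjusted p = 5.6e-24) and C1S at 1.19 ± 0.18 (adjusted p = 5.1e-07), and with CFB lost without replicate 2 or without replicate 3 (adjusted p = 0.231 and 0.122). For Ecto minus VK2, 5 of 8 passed, against 27.5%, all with the smaller log2 response in Ecto. The order can differ in CPM, where mean C3 went from 84.2 to 187 in Ecto and from 7.71 to 42.6 in VK2. Mean CFB went from 3.34 to 9.61 CPM in Ecto and from 1.16 to 12.2 CPM in VK2.

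Marker lists were summed in all GV and all noGV libraries of a line, with the NT and polyamine groups pooled. The ranges are therefore not those of the bacterium alone. The summed leukocyte list, whose highest member was CD68, ran from 58.9 to 90 CPM in Endo libraries with GV, against 34.8 to 52.5 CPM in those with noGV. In Ecto it ran from 56.9 to 121 CPM with GV, against 43.2 to 98.6 CPM with noGV, and in VK2 from 85 to 147 CPM with GV, against 71.4 to 116 CPM with noGV, so that its ranges overlapped in both of these lines. Of its 8 genes, 3 were above 1 CPM in each line, and PTPRC, which all leukocytes carry, was under 1 CPM. The summed hepatocyte list stayed at or below 1.89 CPM in all libraries. The summed fibroblast list, led by COL1A1, ran from 39.7 to 70.5 CPM in Endo with GV, against 26.4 to 36.4 CPM with noGV. In Ecto it ran from 43.5 to 71 CPM, against 27 to 54.3 CPM, and in VK2 from 36.7 to 68.6 CPM, against 25.2 to 46.2 CPM. Besides COL1A1, THY1 had a mean of 17.2 CPM in Ecto and 1.44 CPM in VK2, and DCN had 1.84 CPM in VK2. LUM was under 1 CPM in every line, and DCN in Ecto and Endo. The summed squamous and basal list ran from 19900 to 23500 CPM in Endo with GV, against 24000 to 31100 CPM with noGV. The simple and general epithelial list ran from 3410 to 3950 CPM, against 4310 to 5040 CPM, in Endo. In Ecto it ran from 2780 to 3700 CPM, against 4360 to 5990 CPM. The other epithelial ranges overlapped. The summed endothelial list ran from 1.25 to 3.88 CPM in Endo with GV, against 0.41 to 1.21 CPM with noGV. Each of its genes had a mean under 1 CPM there. Its ranges overlapped in Ecto (2.64 to 4.15 against 1.69 to 3.4 CPM) and VK2 (0.833 to 3.31 against 0.672 to 3.03 CPM). Its highest gene in Ecto was CDH5, with a mean of 1.93 CPM. The part of these lists in the result was not tested.

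Here the question was how RNA of cells with bacteria differed with and without a polyamine beforehand. Polyamines also changed members without bacteria, so these comparisons alone do not show a shifted response to the bacterium, which the interaction below tests. Putrescine lowered C3 and CFB in all 3 lines and raised CD55 in all 3. In Ecto 2 of 8 members rose and 5 fell, against 31.5% of genes that rose and 24.9% that fell. In Endo 1 of 7 rose and 6 fell, against 27.9% and 28.2%. In VK2 1 of 8 rose and 4 fell, against 29% and 31.4%. The members' median log2 fold change stood at -0.18 (Ecto), -0.38 (Endo) and -0.26 (VK2), against 0.075, 0.026 and 0.011 for all genes tested.

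C3 had 89.8, 101 and 97.8 CPM in PUT+GV of Ecto, against 179, 187 and 196 CPM in NT+GV. In Endo it had 15.2, 18.4 and 15.9 CPM in PUT+GV, against 44.1, 46.7 and 46.9 CPM in NT+GV. In VK2 it had 23.1, 24.4 and 24.1 CPM in PUT+GV, against 43.7, 43.4 and 40.7 CPM in NT+GV. The groups were apart in each line. The log2 fold change was -0.91 ± 0.061 in Ecto (adjusted p = 2.7e-12), -1.47 ± 0.071 in Endo (adjusted p = 4.2e-17) and -0.83 ± 0.067 in VK2 (adjusted p = 2.1e-12).

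CFB fell by 0.26 ± 0.10 in Ecto (adjusted p = 0.032), 0.82 ± 0.13 in Endo (adjusted p = 6e-06) and 0.54 ± 0.11 in VK2 (adjusted p = 0.00011), all on the log2 scale, and in Ecto its PUT+GV and NT+GV values overlapped. C1S fell most in Endo, to 9, 8.94 and 8.42 CPM in PUT+GV, against 19.4, 18.8 and 18.6 CPM in NT+GV, a log2 fold change of -1.10 ± 0.080 (adjusted p = 4.9e-13). In Ecto its log2 fold change was -0.33 ± 0.12 (adjusted p = 0.025), and in VK2 0.053 ± 0.10 (adjusted p = 0.69). Without NT+GV replicate 1 of Ecto, CFB, C1S and CD59 no longer passed there and 4 members remained, and CFB and C1S were lost as well without PUT+GV replicate 2 or NT+GV replicate 3. C1R rose in Ecto by 0.24 ± 0.068 (adjusted p = 0.0039) and fell in Endo by 0.26 ± 0.090 (adjusted p = 0.014, and 0.0577 without NT+GV replicate 3). In VK2 its log2 fold change was -0.19 ± 0.094 (adjusted p = 0.081).

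CD55, the decay-accelerating factor, had 63.9, 72.9 and 67.8 CPM in PUT+GV of Ecto, against 44.4, 44.6 and 44.5 CPM in NT+GV. Endo libraries had 149, 147 and 149 CPM in PUT+GV, against 88, 87.5 and 87.6 CPM in NT+GV. In VK2 it had 79, 77.1 and 89.6 CPM in PUT+GV, against 66, 60.1 and 60.9 CPM in NT+GV. Every PUT+GV library was above every NT+GV library of its line. The log2 fold change was 0.67 ± 0.061 in Ecto (adjusted p = 8.7e-10), 0.76 ± 0.039 in Endo (adjusted p = 1.2e-16) and 0.40 ± 0.060 in VK2 (adjusted p = 1.8e-06).

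CD59 and CD46 went the other way. CD59 fell by 0.14 ± 0.040 in Ecto (adjusted p = 0.0059), 0.38 ± 0.035 in Endo (adjusted p = 1.1e-10) and 0.51 ± 0.032 in VK2 (adjusted p = 9.8e-15). CD46 fell by 0.23 ± 0.062 in Ecto (adjusted p = 0.0023), 0.14 ± 0.040 in Endo (adjusted p = 0.0025) and 0.32 ± 0.036 in VK2 (adjusted p = 4.2e-09). With upper quartile factors the log2 fold change of CD46 in Endo was -0.076 and did not pass (adjusted p = 0.0934). CFD did not pass in Ecto or VK2, with log2 fold changes of 0.094 ± 0.17 and 0.12 ± 0.23.

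**Figure D3:**
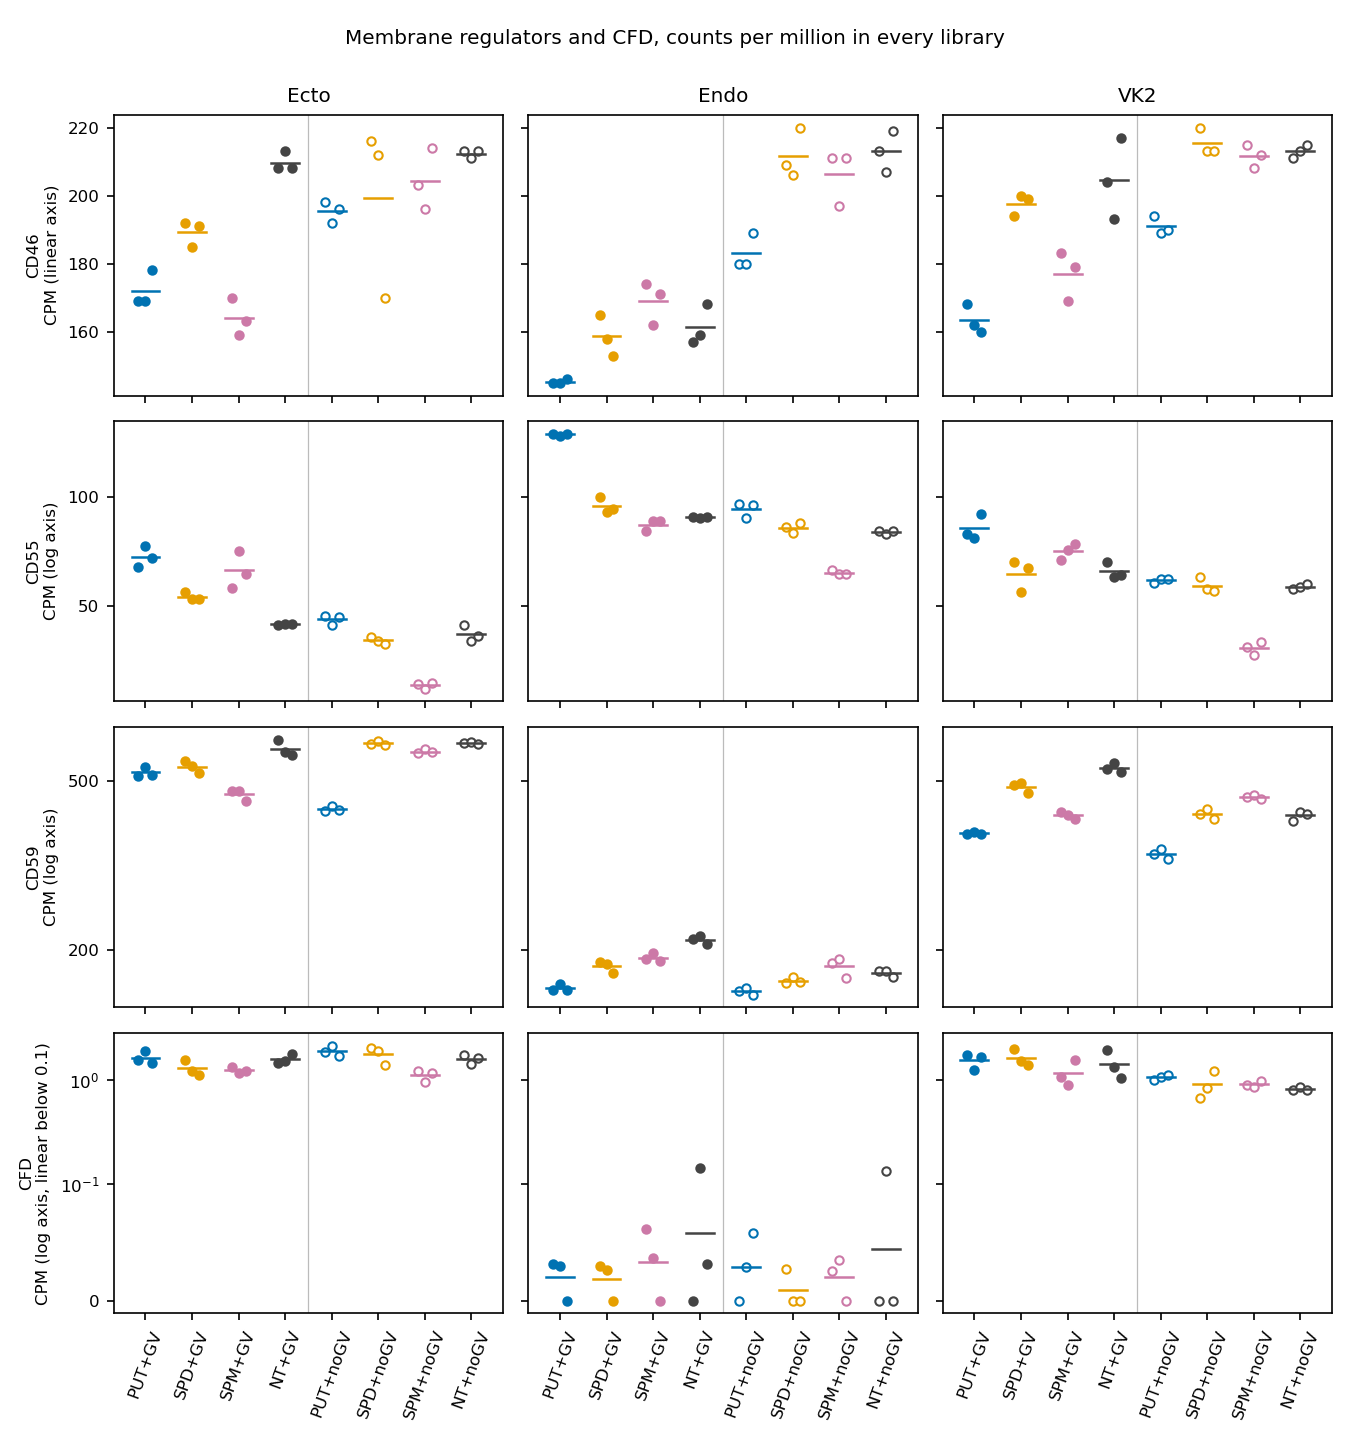
CPM of CD46 (linear axis), CD55, CD59 and CFD (log axes, CFD linear below 0.1) in every library, drawn as for the components. The mean of CD55 is highest in PUT+GV and lowest in SPM+noGV in all 3 lines, and CFD is at most 0.144 CPM in Endo.

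In Ecto spermine lowered C3, CFB and C1R and raised C1S and CD55, while in Endo C3 and CD59 passed and the other 5 members tested did not. In Ecto 2 of 8 members rose and 5 fell, against 28.5% of genes that rose and 27.5% that fell. In Endo 1 of 7 rose and 1 fell, against 21.9% and 21.1%. In VK2 2 of 8 rose and 4 fell, against 27.9% and 30.3%. The members' median log2 fold change stood at -0.31 (Ecto), 0.044 (Endo) and -0.20 (VK2), against -0.017, -0.012 and -0.017 for all genes.

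C1S and C1R moved in opposite directions. In Ecto C1S had 12.4, 17.2 and 15.6 CPM in SPM+GV, against 7.56, 6.14 and 7.03 CPM in NT+GV, and C1R had 13.7, 11.3 and 12.8 CPM in SPM+GV, against 18.9, 17.9 and 20 CPM in NT+GV. In VK2 C1S had 9.56, 12.7 and 11.5 CPM in SPM+GV, against 6.43, 6.62 and 6.38 CPM in NT+GV, and C1R had 7.15, 6.9 and 6.27 CPM in SPM+GV, against 9.88, 8.99 and 9.28 CPM in NT+GV. So in both lines all SPM+GV libraries were above NT+GV for C1S and below it for C1R. The log2 fold change of C1S was 1.17 ± 0.11 in Ecto (adjusted p = 2.6e-09) and 0.86 ± 0.10 in VK2 (adjusted p = 1.2e-08). That of C1R was -0.54 ± 0.071 in Ecto (adjusted p = 4.7e-07) and -0.41 ± 0.10 in VK2 (adjusted p = 0.00079). In Endo the values were 0.16 ± 0.075 for C1S (adjusted p = 0.076) and -0.029 ± 0.089 for C1R (adjusted p = 0.82).

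C3 had 106, 104 and 116 CPM in SPM+GV of Ecto, against 179, 187 and 196 CPM in NT+GV, a log2 fold change of -0.74 ± 0.061 (adjusted p = 1.2e-10). It fell by 0.33 ± 0.067 in VK2 (adjusted p = 8.4e-05). In Endo it rose by 0.22 ± 0.065 (adjusted p = 0.0076), with 53, 53.9 and 52.2 CPM in SPM+GV, against 44.1, 46.7 and 46.9 CPM in NT+GV. CFB fell in Ecto by 0.89 ± 0.11 (adjusted p = 9.1e-08), with 4.56, 4.94 and 5.6 CPM in SPM+GV, against 10.5, 8.03 and 10.3 CPM in NT+GV. Its log2 fold change was 0.044 ± 0.13 in Endo (adjusted p = 0.82) and 0.14 ± 0.11 in VK2 (adjusted p = 0.3).

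CD55 rose by 0.55 ± 0.062 in Ecto (adjusted p = 3.7e-08) and by 0.24 ± 0.062 in VK2 (adjusted p = 0.0014), and was -0.058 ± 0.040 in Endo (adjusted p = 0.25). CD59 fell in all 3 lines, by 0.31 ± 0.040 in Ecto (adjusted p = 4.5e-07), 0.14 ± 0.035 in Endo (adjusted p = 0.002) and 0.31 ± 0.032 in VK2 (adjusted p = 9.9e-10). CD46 fell by 0.30 ± 0.062 in Ecto (adjusted p = 0.00019) and by 0.15 ± 0.037 in VK2 (adjusted p = 0.00068), and was 0.074 ± 0.040 in Endo (adjusted p = 0.13).

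The difference between lines was tested for spermine as a comparison added after seeing the data. For Endo minus Ecto 7 of 8 members passed, against 25.8% of all genes, with C3 at 0.99 ± 0.087 (adjusted p = 1.8e-14), CFB at 0.97 ± 0.17 (adjusted p = 1.1e-05), C1S at -0.97 ± 0.13 (adjusted p = 3.1e-08) and CD55 at -0.56 ± 0.079 (adjusted p = 6.2e-08). For Endo minus VK2 6 of 8 passed, against 24.6%, but 4 to 5 on leaving out a replicate, with C1R lost without replicate 1 or 2 and CD55 without replicate 2 or 3. For Ecto minus VK2 3 of 8 passed, against 31.6%, and these were C3 (-0.40 ± 0.090), CFB (-1.01 ± 0.17) and CD55 (0.32 ± 0.081). Without the filter on low counts, C1R, CD46 and CD59 in Endo minus VK2 and CD55 in Ecto minus VK2 did not pass.

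With spermidine, at the same dose and times as spermine, 3 members passed in each line, against 7 in Ecto, 2 in Endo and 6 in VK2 with spermine. In Ecto 1 of 8 rose and 2 fell, against 6.53% of genes that rose and 6.6% that fell. In Endo 3 of 7 fell, against 5.22% of genes that rose and 8.71% that fell. In VK2 3 of 8 fell, against 4.84% and 7.87%. The members' median log2 fold change stood at -0.13 (Ecto), -0.20 (Endo) and -0.085 (VK2), against 0.018, 0.0068 and -0.0043 for all genes. C3 fell in all 3 lines, by 0.29 ± 0.060 in Ecto (adjusted p = 0.0025), 0.50 ± 0.067 in Endo (adjusted p = 4.9e-06) and 0.28 ± 0.065 in VK2 (adjusted p = 0.004). CD59 also passed in all 3, with a fall of 0.13 ± 0.040 in Ecto (adjusted p = 0.035), 0.20 ± 0.035 in Endo (adjusted p = 0.00015) and 0.15 ± 0.032 in VK2 (adjusted p = 0.0013). The Ecto call was lost without any of 4 of the 6 libraries (adjusted p from 0.0533 to 0.222), without the filter on low counts (adjusted p = 0.112) and with upper quartile factors (adjusted p = 0.0812).

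The remaining members that passed were CFB in VK2 with a log2 fold change of -0.45 ± 0.11 (adjusted p = 0.0059, lost without NT+GV replicate 1 or SPD+GV replicate 2), C1S in Endo with -0.37 ± 0.076 (adjusted p = 0.0013) and CD55 in Ecto with 0.26 ± 0.062 (adjusted p = 0.0059). CFB in Endo was at the threshold with -0.38 ± 0.13 (adjusted p = 0.05).

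Spermine carries one more aminopropyl group than spermidine. With bacteria present, SPM+GV and SPD+GV differed in 7 of 8 members in Ecto, against 53.8% of all genes, in 4 of 7 in Endo, against 44.6%, and in 6 of 8 in VK2, against 52.6%. The CD46 call was lost without any of 4 of the 6 libraries in Ecto and any of 3 of the 6 in VK2, and with DESeq2 in both lines. The C1R call in VK2 was lost without SPD+GV replicate 2, without SPM+GV replicate 3 and with DESeq2. C1S was higher with spermine in all 3 lines. It had 12.4, 17.2 and 15.6 CPM in SPM+GV of Ecto, against 6.93, 7.29 and 6.32 CPM in SPD+GV, a log2 fold change of 1.18 ± 0.11 (adjusted p = 2.8e-09). The values were 0.53 ± 0.076 in Endo (adjusted p = 1e-06) and 0.70 ± 0.099 in VK2 (adjusted p = 4.2e-07). C3 was -0.45 ± 0.061 in Ecto (adjusted p = 7.5e-07) and 0.72 ± 0.067 in Endo (adjusted p = 2.5e-10). In VK2 C3 did not pass, and the 95% interval of the difference ran from -0.19 to 0.084. CFB was -0.70 ± 0.11 in Ecto (adjusted p = 4.1e-06), 0.42 ± 0.13 in Endo (adjusted p = 0.0097, lost without SPM+GV replicate 2 or SPD+GV replicate 3) and 0.59 ± 0.11 in VK2 (adjusted p = 4.1e-05). C1R in Endo did not pass either, with an interval from -0.16 to 0.21. Putrescine was used at another dose and was not compared with them.

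Without bacteria, putrescine raised C1R in Ecto and VK2 and lowered CD59 in all lines, spermine lowered CD55 in all lines, and spermidine moved 1 member in Ecto. With putrescine, 4 of 8 members rose and 2 fell in Ecto, against 23.9% and 22.9% of all genes. In Endo 2 of 7 rose and 2 fell, against 15.6% and 16.3%, and in VK2 2 of 8 rose and 2 fell, against 22% and 23%. The members' median stood at 0.21 (Ecto), -0.15 (Endo) and 0.21 (VK2), against 0.026, 0.0047 and 0.011 for all genes. C1R had 4.87, 5.33 and 5.48 CPM in PUT+noGV of VK2, against 3.05, 2.93 and 2.78 CPM in NT+noGV, a log2 fold change of 0.85 ± 0.11 (adjusted p = 3.1e-07). In Ecto it was 0.39 ± 0.068 (adjusted p = 3.6e-05), and in Endo 0.32 ± 0.11 (adjusted p = 0.02). The Endo value was 0.18 without PUT+noGV replicate 3 and 0.23 without NT+noGV replicate 1, and passed in neither case (adjusted p = 0.241 and 0.139) nor in the fit of the compared groups (adjusted p = 0.0646). C1S rose in Ecto by 0.38 ± 0.13 (adjusted p = 0.017) and in VK2 by 0.92 ± 0.13 (adjusted p = 8e-07). CFB rose in Ecto by 0.60 ± 0.12 (adjusted p = 0.00011). Without NT+noGV replicate 3 of Ecto, C3, C1S and CD55 no longer passed and 3 members remained, and C1S and CD55 were lost without NT+noGV replicate 2, C3 without NT+noGV replicate 1, CD55 without PUT+noGV replicate 1, and C3 and CD55 without PUT+noGV replicate 3. CD59 fell by 0.49 ± 0.041 in Ecto (adjusted p = 2.7e-10), 0.15 ± 0.035 in Endo (adjusted p = 0.0016) and 0.29 ± 0.032 in VK2 (adjusted p = 1.3e-08).

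With spermine alone, 6 of 8 members fell in Ecto, against 12.2% of genes that fell and 11.3% that rose, and 4 to 6 passed on leaving out 1 library. CFD was lost without any of 4 of the 6 libraries, C1S without any of 3, and both with DESeq2 (adjusted p = 0.105 and 0.0558). CFD was also lost without the filter on low counts (adjusted p = 0.161). In Endo 1 of 7 rose and 1 fell, against 8.02% and 10.1%, and in VK2 2 of 8 rose and 1 fell, against 17.4% and 15.6%. The members' median stood at -0.35 (Ecto), -0.046 (Endo) and 0.16 (VK2), against 0.00055, -0.014 and -0.00011 for all genes. CD55 had 30.5, 29.6 and 30.6 CPM in SPM+noGV of Ecto, against 44.4, 40 and 41.4 CPM in NT+noGV. Endo libraries had 62.7, 61.2 and 61.3 CPM in SPM+noGV, against 80.2, 79 and 80.2 CPM in NT+noGV. In VK2 it had 38.5, 36.6 and 39.7 CPM in SPM+noGV, against 55.5, 56.4 and 57.3 CPM in NT+noGV. The groups did not overlap, and the log2 fold change was -0.46 ± 0.064 in Ecto (adjusted p = 7e-06), -0.37 ± 0.041 in Endo (adjusted p = 7.3e-08) and -0.54 ± 0.064 in VK2 (adjusted p = 1.3e-07). CFB fell in Ecto by 0.85 ± 0.13 (adjusted p = 3e-05). C1S was -0.42 ± 0.14 in Ecto (adjusted p = 0.029), 0.38 ± 0.12 in Endo (adjusted p = 0.029) and 0.48 ± 0.14 in VK2 (adjusted p = 0.0068, and 0.0562 without SPM+noGV replicate 2). In Endo the C1S call was lost without any of 4 of the 6 libraries (adjusted p from 0.0569 to 0.181).

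With spermidine alone, C1R in Ecto was the single member that passed, with 0.32 ± 0.069 (adjusted p = 0.043, lost without any of 4 of the 6 libraries and in the fit of the compared groups), against 0.139% of genes that rose and 0.164% that fell. In Endo and VK2 edgeR called 0 members (1 in each had an unadjusted p under 0.05, and DESeq2 called 0), where 0.101% and 0.08% of genes rose and fell in Endo and 0.238% and 0.222% in VK2.

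**Figure D4:**
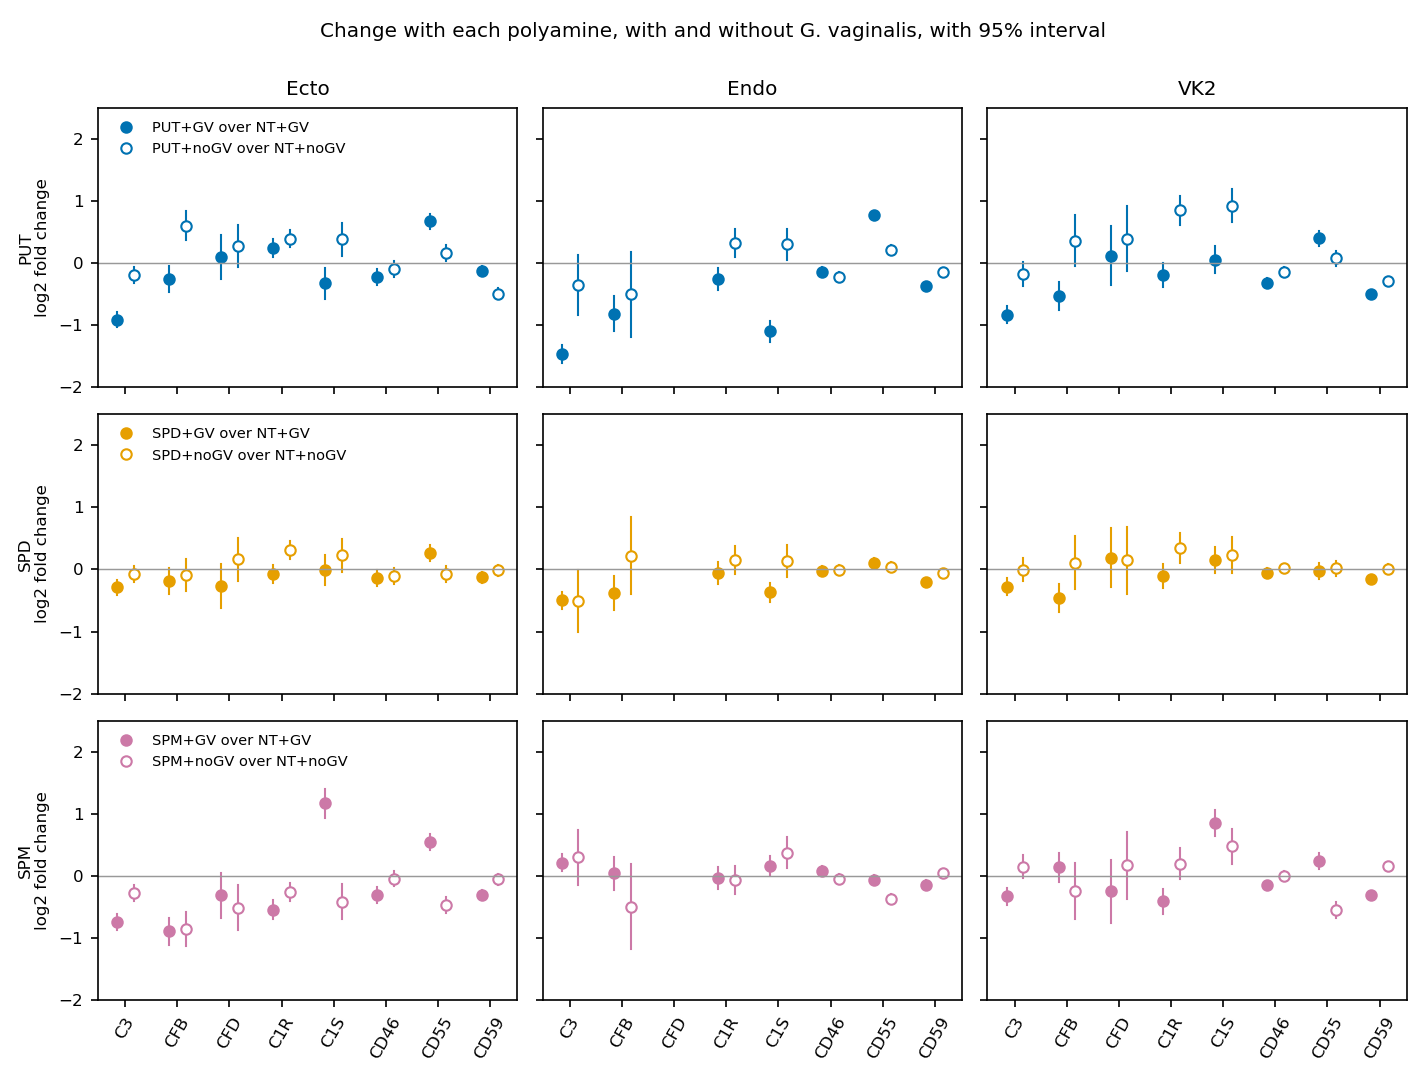
Log2 fold change with each polyamine (rows) in each line (columns) for every member tested (x axis), filled points for +GV over NT+GV, open points for +noGV over NT+noGV, and lines for the 95% interval. CD55 with spermine lies below 0 without bacteria in all 3 lines and above 0 with them in Ecto and VK2.

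The interaction, the change with bacteria minus the change without, was tested in each line. For putrescine 5 of 8 members passed in Ecto, against 26.4% of all genes, 5 of 7 in Endo, against 34.8%, and 7 of 8 in VK2, against 27.6%. C3 was -0.72 ± 0.086 in Ecto (adjusted p = 9.4e-07), -1.11 ± 0.25 in Endo (adjusted p = 0.00083) and -0.65 ± 0.11 in VK2 (adjusted p = 6.4e-05). CD55 was 0.52 ± 0.087 in Ecto (adjusted p = 8.3e-05), 0.55 ± 0.055 in Endo (adjusted p = 3.1e-09) and 0.32 ± 0.086 in VK2 (adjusted p = 0.0052). C1S was -0.70 ± 0.18 in Ecto (adjusted p = 0.0039), -1.40 ± 0.15 in Endo (adjusted p = 7.3e-09) and -0.87 ± 0.17 in VK2 (adjusted p = 2e-04). In VK2 putrescine raised C1S without bacteria (0.92 ± 0.13), and its change with them did not pass (0.053 ± 0.10). In Ecto C1S rose by 0.38 ± 0.13 without bacteria and fell by 0.33 ± 0.12 with them. CFB was -0.86 ± 0.15 in Ecto (adjusted p = 0.00015) and -0.89 ± 0.23 in VK2 (adjusted p = 0.0037). In Ecto CFB rose by 0.60 ± 0.12 without bacteria and fell by 0.26 ± 0.10 with them. In Endo CFB was -0.31 ± 0.37 and did not pass (adjusted p = 0.56). C1R was -0.58 ± 0.14 in Endo (adjusted p = 0.0014), -1.04 ± 0.15 in VK2 (adjusted p = 3.4e-06) and -0.15 ± 0.096 in Ecto (adjusted p = 0.27). In VK2 putrescine raised C1R without bacteria (0.85 ± 0.11), and its change with them did not pass (-0.19 ± 0.094). CD46 passed in VK2 with -0.18 ± 0.051 (adjusted p = 0.0096), but not with upper quartile factors (adjusted p = 0.169). CD59 was 0.36 ± 0.057 in Ecto (adjusted p = 4e-05), where putrescine lowered it more without bacteria than with them. In Endo CD59 was -0.23 ± 0.050 (adjusted p = 0.00046) and in VK2 -0.22 ± 0.046 (adjusted p = 0.00039).

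For spermine 6 of 8 members passed in Ecto, against 36.3%, 2 of 7 in Endo, against 24.3%, and 5 of 8 in VK2, against 38.9%, with 4 to 6 in both Ecto and VK2 on leaving out 1 library. CD55 was 1.01 ± 0.089 in Ecto (adjusted p = 1.3e-09), 0.31 ± 0.057 in Endo (adjusted p = 8.5e-05) and 0.78 ± 0.088 in VK2 (adjusted p = 5.7e-08). In Endo spermine lowered CD55 without bacteria (-0.37 ± 0.041), and its change with them did not pass (-0.058 ± 0.040). C1S was 1.59 ± 0.18 in Ecto (adjusted p = 9.6e-08). In VK2 C1S was 0.38 ± 0.17 (adjusted p = 0.083) and in Endo -0.21 ± 0.14 (adjusted p = 0.32). CD59 was -0.25 ± 0.057 in Ecto (adjusted p = 0.001), -0.18 ± 0.050 in Endo (adjusted p = 0.0062) and -0.47 ± 0.046 in VK2 (adjusted p = 1e-09). C3 was -0.46 ± 0.086 in Ecto (adjusted p = 0.00015) and -0.48 ± 0.11 in VK2 (adjusted p = 0.00096). In Endo C3 did not pass, with -0.084 ± 0.22 (adjusted p = 0.84). C1R was -0.285 ± 0.10 in Ecto (adjusted p = 0.027) and -0.60 ± 0.16 in VK2 (adjusted p = 0.0027). CD46 was -0.26 ± 0.087 in Ecto (adjusted p = 0.021) and -0.16 ± 0.052 in VK2 (adjusted p = 0.015). Neither passed in Endo. The C1R call in Ecto and the CD46 calls in Ecto and VK2 were each lost on leaving out some single libraries. For CFB in Ecto the interval of the interaction ran from -0.39 to 0.32. For spermidine 2 of 8 members passed in Ecto, against 3.13%, namely CD55 with 0.34 ± 0.088 (adjusted p = 0.035) and C1R with -0.39 ± 0.097 (adjusted p = 0.028). On leaving out 1 of the 12 libraries at a time, CD55 was lost in 8 cases (adjusted p from 0.0536 to 0.114) and C1R in 6 (adjusted p from 0.0573 to 0.0793), and both were lost in the fit of the compared groups. In Endo and VK2 edgeR called 0 members (2 in Endo and 4 in VK2 had an unadjusted p under 0.05, and DESeq2 called CD59, 1 member, in each), against 3.45% and 0.352% of all genes.

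Of 49 other complement genes, 21 were tested in Ecto, 18 in Endo and 16 in VK2. The genes of C1q, the ligand-binding part of the first component, and the pore proteins C6, C8A and C8B were at 0.00813 CPM or less in both NT groups of all lines. With bacteria alone 5 of 21 rose and 2 fell in Ecto, against 20.9% and 23.7% of all genes. In Endo 4 of 18 rose and 3 fell, against 25.7% and 28.7%. In VK2 4 of 16 rose and 2 fell, against 13.9% and 12.5%. The median log2 fold change of these other genes was 0.29 (Ecto), 0.51 (Endo) and 0.33 (VK2). C5, the precursor of the terminal pathway, fell in all 3 lines, with -0.54 ± 0.11 in Ecto (adjusted p = 0.00015), -1.16 ± 0.085 in Endo (adjusted p = 4.2e-13) and -0.46 ± 0.12 in VK2 (adjusted p = 0.0049). C4A rose in Endo with 0.91 ± 0.23 (adjusted p = 0.0017), but C4A and C4B are near-identical copies whose counts may be split wrongly.

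With putrescine before bacteria 5 of 21 others rose and 7 fell in Ecto, against 31.5% and 24.9% of all genes. In Endo 4 of 18 rose and 3 fell, against 27.9% and 28.2%. In VK2 5 of 16 rose and 4 fell, against 29% and 31.4%. CLU (clusterin), an inhibitor of the membrane pore, rose in all 3 lines, with 1.29 ± 0.084 in Ecto (adjusted p = 2.3e-12), 0.95 ± 0.047 in Endo (adjusted p = 7.1e-17) and 1.17 ± 0.085 in VK2 (adjusted p = 1.9e-13). With spermine before bacteria 8 of 21 rose and 7 fell in Ecto, against 28.5% and 27.5% of all genes. In Endo 3 of 18 rose and 2 fell, against 21.9% and 21.1%. In VK2 4 of 16 rose and 4 fell, against 27.9% and 30.3%. PTX3, a secreted pattern-recognition protein that binds C1q, led with 2.38 ± 0.15 in Ecto (adjusted p = 1.8e-12) and 4.52 ± 0.13 in VK2 (adjusted p = 1e-23). With spermidine before bacteria 2 of 21 rose in Ecto, against 6.53% of all genes, and 2 of 18 in Endo, against 5.22%, led by CLU in both.

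Likeness of pattern was measured as Pearson's r over the 24 group means, which share lines and pretreatments, each gene centred within its line. It is a description and says nothing of control. The genes nearest to C3 were S100A9 (r = 0.982), LCN2 (0.972), SAA1 (0.966), S100A8 (0.964) and ADAM8 (0.96). Those nearest to CFB were MMP9 (0.981), IL32 (0.962), CXorf38 (0.961), RHBDL2 (0.96) and LCN2 (0.959). Among the 5 nearest to C1S were NFKB2 (0.958), LCN2 (0.937), DRAP1 (0.937) and ZC3H12A (0.936). C1R was nearest to TSPAN9 (0.918), SECTM1 (0.914), RHBDL2 (0.914), DTX2 (0.911) and HLA-C (0.91). CD55 was nearest to TMEM79 (0.948), CD46 to DCUN1D4 (0.956), CD59 to TYK2 (0.921) and CFD to PALLD (0.799). Within single lines some values were lower. In Ecto r was 0.595 for IL32 with CFB, 0.478 for HLA-C with C1R and 0.57 for RHBDL2 with C1R, and in Endo it was 0.416 for PALLD with CFD. Between members, r was 0.932 for C3 with CFB, 0.894 for C3 with C1S, 0.769 for C1R with C1S and -0.76 for CD46 with CD55.

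Several members share their locus with other genes, so reads may be assigned to either. Positions are those of the deposited table, on GRCh38. C3 (ENSG00000125730.18, chr19:6677704-6730562) overlaps GPR108 on the same strand, and C1R (ENSG00000159403.18, chr12:7080214-7092540) overlaps C1RL. CFB (ENSG00000243649.10, chr6:31945650-31952086) overlaps C2, which held 1121 counts in all libraries against 12199 for CFB. C1S (ENSG00000182326.17, chr12:6988259-7071032) overlaps ENSG00000290146.1 on the same strand, another protein-coding model with 89135 counts against 16142 for C1S. With spermine before bacteria the log2 fold change of that model was -0.082 ± 0.063 in Ecto (adjusted p = 0.28) and -0.052 ± 0.055 in VK2 (adjusted p = 0.43). With bacteria alone it was -0.26 ± 0.062 in Ecto (adjusted p = 0.0011) and 0.24 ± 0.049 in Endo (adjusted p = 9.6e-05). In VK2 it was 0.11 ± 0.054 (adjusted p = 0.12). Whether reads were exchanged between that model and C1S was not tested. CD59 (ENSG00000085063.18, chr11:33703010-33736479) overlaps ENSG00000284969.1, with 9121 counts against 905178. C1RL fell with putrescine before bacteria in Ecto, by 0.84 ± 0.11 (adjusted p = 3.2e-07), where C1R rose. CD46 and CFD each lie opposite another gene, MIR29B2CHG with 3847 counts and MED16 with 98851. C1S lies opposite LPCAT3, with 87422 counts against 16142 for C1S, and the log2 fold change of LPCAT3 was 0.38 ± 0.050 in Endo with bacteria alone (adjusted p = 1.2e-07) and -0.25 ± 0.050 in Ecto with spermine before bacteria (adjusted p = 0.00014). Whether the counting used strand is not given in the sources used here. With bacteria alone, where C3 rose, GPR108 had a log2 fold change of -0.10 ± 0.056 in Ecto, -0.16 ± 0.046 in Endo and 0.27 ± 0.075 in VK2.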

How the data were processed

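RNA of 72 libraries (ribosome-depleted, stranded, with molecular identifiers whose use in counting is not given in the sources used here) was quantified by the authors with Salmon against release 44 of the human annotation (GRCh38.p13), and they deposited gene-level estimated counts as whole numbers. Library totals are given with the levels.

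From these counts, genes were filtered by edgeR's filterByExpr, scaled by TMM and tested with the quasi-likelihood test of edgeR 4.0.16 in R 4.3.3, 1 model of 8 groups for each line and 1 model of 72 libraries between lines. P-values are two-sided and adjusted by Benjamini-Hochberg over all genes tested. DESeq2 1.42.0, other scalings, filters, thresholds and fits, a replicate block and leaving out each library were alternatives. The procedure was tested on simulated data.

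The members and lists were chosen with earlier results of these data known. All 9 members are named. Of 49 other complement genes, at most 4 with the smallest adjusted p were eligible to be named for a comparison and line. A few genes that the rules would name are not reported here. The differences between lines in the spermine change were added after seeing the data. Promoter sequences are from RefSeq (GRCh38.p14).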

Additional observations from a re-analysis of the deposited data

Results flagged for a closer look

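These members are named because a test of the difference between lines itself passed, in one model of all 72 libraries. Each value is the log2 change in the line named before "minus", less that in the line named after it. For the change with bacteria alone, Endo minus Ecto was 4.59 for C3, 2.73 for CFB, 1.18 for C1R, 2.20 for C1S, -0.38 for CD46 and 0.30 for CD59. Endo minus VK2 was 3.27 for C3, 0.84 for CFB, 1.19 for C1S and -0.34 for CD46, with the CFB call lost without replicate 2 or without replicate 3. Ecto minus VK2 was -1.31 for C3, -1.89 for CFB, -1.51 for C1R, -1.01 for C1S and -0.42 for CD59.

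For the change with spermine in the presence of bacteria, a comparison chosen after seeing the data, Endo minus Ecto was 0.99 for C3, 0.97 for CFB, 0.55 for C1R, -0.97 for C1S, 0.42 for CD46, -0.56 for CD55 and 0.21 for CD59. Endo minus VK2 was 0.60 for C3, 0.43 for C1R, -0.64 for C1S, 0.28 for CD46, -0.25 for CD55 and 0.22 for CD59. Of these, C1R was lost without replicate 1 or 2, CD55 without replicate 2 or 3, and C1R, CD46 and CD59 without the filter on low counts. Ecto minus VK2 was -0.40 for C3, -1.01 for CFB and 0.32 for CD55, which was lost without that filter.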

How the results depend on the processing

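Over 42 comparisons, 533 of 630 counts of members passing under an alternative were within 1.5 times the reported count. Of 4517 fold changes of single members under alternatives, 4334 kept their direction and side of the threshold, 132 no longer passed, 51 passed only under the alternative and none of those called changed sign. Where a count moved, the cause was not tested, except that the stricter fold thresholds leave fewer members by construction.

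With a fold change of at least 2 also required, the count in Ecto was 2 for bacteria alone, 1 for SPM+GV over NT+GV, 1 for SPM+GV over SPD+GV, 2 for the spermine interaction, and 0 for PUT+GV, SPD+GV, PUT+noGV, SPD+noGV, SPM+noGV and the putrescine and spermidine interactions. In Endo it was 4 for bacteria alone, 2 for PUT+GV, 2 for the putrescine interaction and 0 for SPD+GV, SPM+GV, PUT+noGV, SPM+noGV, SPM+GV over SPD+GV and the spermine interaction. In VK2 it was 1 for the putrescine interaction and 0 for PUT+GV, SPD+GV, SPM+GV, PUT+noGV, SPM+noGV, SPM+GV over SPD+GV and the spermine interaction. Between lines it was 4 for Ecto over VK2, 2 for the response to bacteria in Endo minus VK2, and for the spermine change 1 in Ecto minus VK2 and 0 in Endo minus VK2 and Endo minus Ecto. With a log2 fold change of at least 2, the value in the study's methods, 3 members in Endo and 2 in VK2 passed with bacteria alone, and 0 in Ecto and in every comparison of a polyamine within a line.

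With a fit of the compared groups alone, the count was 0 for SPD+noGV and for the spermidine interaction in Ecto and 1 for SPM+noGV in Endo, which was also 1 in one model of all lines. With RLE factors the spermidine interaction gave 1 in Ecto and 1 in Endo. DESeq2 gave 1 in Endo and 1 in VK2 for that interaction. Without the filter on low counts, the spermine change in Endo minus VK2 gave 3. With the replicate number as a block, SPD+GV gave 5 in Endo and the spermidine interaction 2 in Endo and 1 in VK2. Deviations of same-numbered libraries correlated between -0.0558 and 0.0806 over 24 comparisons, under the minimum of 0.1, so 0 comparisons were treated as paired. Correlations within groups of 3 libraries cannot show whether same-numbered libraries shared a batch.

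Leaving out 1 library at a time gave 4 to 7 members for PUT+GV, 3 to 6 for PUT+noGV, 0 to 1 for SPD+noGV and 0 to 2 for the spermidine interaction in Ecto, and 1 to 2 for SPM+noGV and 0 to 1 for the spermidine interaction in Endo. CFI in all lines and CFD in Endo did not pass the filter on low counts and were not tested within those lines.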
